A study of Homo sapiens with 4 samples.

Results

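The first internal transcribed spacer (ITS1) of the human 47S pre-rRNA was examined nucleotide by nucleotide in RNA crosslinked to the G-patch protein NKRF. Every nucleotide that the deposited files assign to ITS1 was taken, which gave 1095 of the 13780 positions of the 47S pre-rRNA, from position 5526 to position 6620. Positions below are counted from 1 at the first ITS1 nucleotide unless the 47S is named. The reference is the deposited 47S sequence, whose build is not given in the sources used here, and its letters are written 5′ to 3′ on the transcribed strand with T for U. ITS1 is a non-coding spacer of the ribosomal DNA. It was made up of 39.4% C, 40.3% G, 12.7% T and 7.67% A.

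The cells were Flp-In T-Rex HEK293, a human embryonic kidney line built to take up 1 construct at a fixed site and to express it when tetracycline is added. Flag-His-NKRF, or as the control the Flag-His tag by itself, was expressed for 24 h before crosslinking. Expression from an added construct beside the cells' own NKRF is a limit of the model. Each line was crosslinked in either of 2 ways, at 254 nm (UV) or at 365 nm after 6 h in 100 µM 4-thiouridine, a uridine analogue that crosslinks and is then misread as another base (PAR). All 4 groups therefore carried the tag and received tetracycline. Each group had 1 library. Without replicates, no comparison could be set against a spread between samples, and no test was made. The bound RNA was recovered, trimmed, joined to adapters and sequenced, a method called crosslinking and analysis of cDNA (CRAC). Coverage is in normalised hits, the number of reads over a nucleotide per 1000000 reads of the library.

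In human cells 18S and 5.8S rRNA are cut out of a shared precursor, and ITS1 is the stretch between them. It is removed by endonucleases that cut inside it and by exonucleases that trim the remainder, among them the 5′-3′ exonuclease XRN2. One group of cuts lies near the 18S end and another toward the 5.8S end of the spacer. The study places NKRF with XRN2 and the helicase DHX15 in this pathway. The deposited files mark no cleavage site, so steps in coverage are given below by position only. The 5.8S rRNA is known in a short and a longer form that differ at the 5′ end.

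The parts of the sequence on which the results turn are shown first. The 2 borders are shown with 20 nt on either side, and the capitals mark the first 7 and the last 6 nucleotides of ITS1, where coverage changed in the steps described below. The main peak is shown with 10 nt after it. Its capitals mark 2 T that were substituted in at least 50% of the PAR reads, at positions 315 and 362, and the G and T with the highest deletion shares of the UV reads, at positions 365 and 372. In the 6 other peaks shown, capitals mark each T with at least 10 PAR reads that was substituted in at least 20% of them. The T at position 847, substituted in 67.5% of 9 PAR reads, therefore stays in lower case. The UV peak at position 115 is not among those shown. The last line is the longest stretch without T.
18S border, 47S 5506 to 5545: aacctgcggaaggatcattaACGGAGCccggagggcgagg
5.8S border, 47S 6601 to 6640: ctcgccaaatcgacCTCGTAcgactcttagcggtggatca
main peak, positions 312 to 380 (47S 5837 to 5905): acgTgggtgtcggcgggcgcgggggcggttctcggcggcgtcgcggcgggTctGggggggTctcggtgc
second peak, positions 255 to 282 (47S 5780 to 5807): gcgcgTgTcgtggggccggcgggcggcg
peak 446 to 477 (47S 5971 to 6002): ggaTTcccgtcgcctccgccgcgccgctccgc
peak 497 to 540 (47S 6022 to 6065): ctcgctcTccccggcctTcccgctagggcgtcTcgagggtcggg
peak 708 to 747 (47S 6233 to 6272): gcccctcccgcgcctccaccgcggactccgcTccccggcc
peak 791 to 819 (47S 6316 to 6344): gcTTtacccggcggccgtcgcgcgcctgc
UV peak 795 to 851 (47S 6320 to 6376): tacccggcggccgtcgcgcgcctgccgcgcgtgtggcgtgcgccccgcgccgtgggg
stretch without T, positions 173 to 242 (47S 5698 to 5767): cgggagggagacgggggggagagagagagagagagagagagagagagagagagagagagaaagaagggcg

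Mean coverage of ITS1 was 11.7 normalised hits with the tag alone and 151 with NKRF in the UV pair, and 6.14 and 225 in the PAR pair. At least 1292 reads lay behind the tag-only UV profile, 5313 behind NKRF UV, 39 behind tag-only PAR and 1492 behind NKRF PAR, so the tag-only PAR profile was the thinnest by far. NKRF reads covered all 1095 positions in the UV library and 1021 in the PAR library. The tag-only libraries covered 825 and 345 positions. The libraries as a whole held about 841751, 1087548, 112189 and 225759 reads in the same order.

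**Figure D1:**
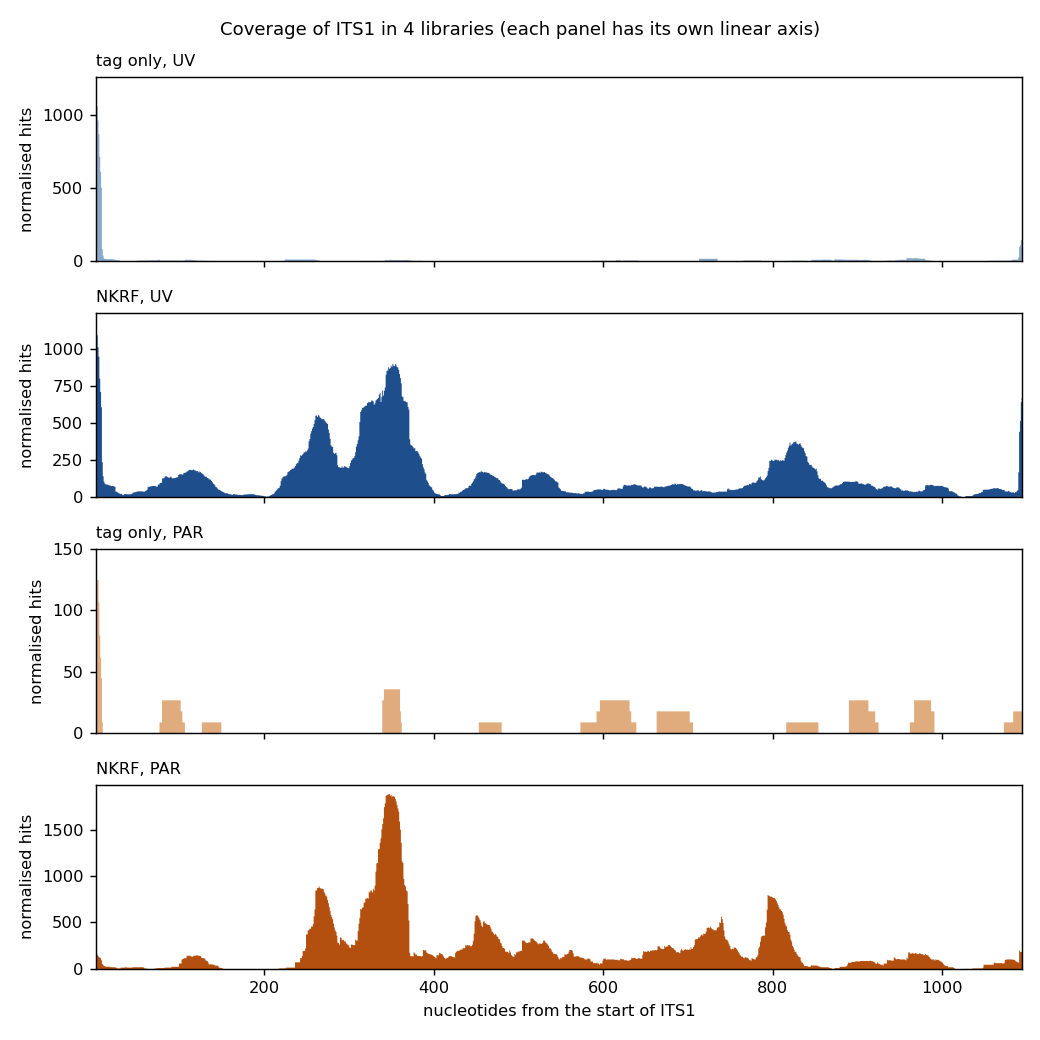
Coverage in normalised hits (linear vertical axes, different in each panel) against the distance in nucleotides from the start of ITS1, for the 4 libraries. Tag-only UV coverage stood at the 18S end, at 1197 normalised hits on the first nucleotide. In both NKRF libraries the highest coverage inside the spacer lay at positions 347 to 351.

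The first question was how much of the ITS1 signal could come from reads that cross in from the mature rRNAs. A read crossing a border covers every nucleotide up to its end, so the running minimum of coverage from each border gives an upper limit for such reads. That limit was 57.4% of the ITS1 coverage in the tag-only UV library (95% interval 54.6 to 60.1) and 14.5% in the NKRF UV library (13.6 to 15.5). It was 15.03% with the tag alone in the PAR pair (5.86 to 30.5) and 2.37% with NKRF (1.64 to 3.25). Intervals here and below use exact Clopper-Pearson or exact binomial formulas. They cover counting error only, since PCR copies cannot be told from independent molecules here. For the limit of crossing reads and the ratios of shares, a share of coverage was set on the least number of reads, so those intervals are approximate. For substituted or deleted shares summed over many nucleotides, each nucleotide of a read counted separately, so those intervals may be too narrow. The 18S side gave most of it in 3 libraries, with 49.5% of the ITS1 coverage in tag-only UV, 9.81% in NKRF UV and 10.3% in tag-only PAR. In NKRF PAR the 5.8S side gave more, 1.502% against 0.871%.

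The first 10 nt alone held 47.3% of the tag-only UV coverage of ITS1 and 4.17% of the NKRF UV coverage. They held 10.3% and 0.450% in the PAR pair. Their level hardly differed between the UV libraries, with a mean of 608 normalised hits with the tag alone and 687 with NKRF. As a share of 47S coverage they were therefore lower with NKRF, at a ratio of 0.470 (0.432 to 0.511) with UV and of 0.134 (0.0740 to 0.255) with PAR. The share of the whole of 18S was lower too, at ratios of 0.513 and 0.0614. Scaled to the reads of each library, in place of the share of 47S coverage, the ratios of the first 10 nt were 1.13 (1.04 to 1.23) and 1.60 (0.881 to 3.04).

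Away from the borders the share of 47S coverage was higher with NKRF. Without its first and last 10 nt, ITS1 had a mean of 5.58 normalised hits with the tag alone and 143.8 with NKRF in the UV pair. That was a 10.7-fold higher share of 47S coverage (9.18 to 12.6), against 5.34-fold (5.02 to 5.68) over the whole spacer. The PAR means were 5.44 and 227, a 3.51-fold higher share (2.33 to 5.55), against 3.08-fold (2.24 to 4.35) over the whole spacer. 18S made up 82.2% of the 47S coverage with tag-only UV and 42.2% with NKRF UV. In the PAR pair it made up 68.3% and 4.20%. A lower share of 18S by itself raises the mean share of the rest of the 47S, so these folds are not particular to ITS1. Scaled to library reads, the inner part was higher with NKRF by 25.8-fold in the UV pair and by 41.8-fold in the PAR pair. At least 169 tag-only UV reads and 23 tag-only PAR reads lay behind the inner part. In bulk recovery of this kind, more crosslinking to a region and more of that RNA in the cells cannot be told apart.

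At the 18S border, most reads that reached the last nucleotide of 18S did not stop there, but coverage had already fallen inside 18S. The last 18S nucleotide had 47.6% of the coverage of the 25th from the end with tag-only UV, and 54.0% with NKRF UV. The PAR values were 43.7% with the tag alone and 78.2% with NKRF. From nucleotide 5 to 4 before ITS1, tag-only UV went from 2020 to 1503 normalised hits and NKRF UV from 2086 to 1705. Tag-only PAR went from 285 to 232 there and NKRF PAR from 230 to 226. Coverage of the first ITS1 nucleotide was 95.1% of that of the last 18S nucleotide with the tag alone and UV, 90.05% with NKRF and UV, 94.1% with the tag alone and PAR and 93.1% with NKRF and PAR. Coverage then fell over the next 7 nt, with the sharpest step after position 7. Between positions 7 and 8 it went from 505 to 86 normalised hits in tag-only UV, from 610 to 239 in NKRF UV, from 45 to 9 in tag-only PAR and from 97 to 58 in NKRF PAR. This was the largest fall of the NKRF UV library anywhere in ITS1, 403 reads, and it was present with the tag alone.

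More NKRF reads went past that step. At position 8, coverage was 18.2% of the last 18S nucleotide with NKRF (16.2 to 20.3, of 1431 reads) and 6.83% with the tag alone (5.35 to 8.48, of 1060 reads) in the UV pair. At position 11 it was 7.22% (5.91 to 8.66) and 1.43% (0.794 to 2.32). The UV intervals did not overlap at either position. With PAR, position 8 had 28.4% with NKRF (15.99 to 43.5, of 46 reads) and 5.92% with the tag alone (0.149 to 28.7, of 17 reads), and these intervals overlapped. Reads that start inside ITS1 also count toward these values.

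On the ITS1 side of the 5.8S border the intervals of the UV libraries overlapped. Coverage of the last ITS1 nucleotide was 56.3% of that of the first 5.8S nucleotide with the tag alone (49.8 to 62.3) and 55.5% with NKRF (52.9 to 58.0). At position 1090, 6 nt before 5.8S, it was 10.3% (6.82 to 14.7) and 12.1% (10.5 to 13.8). Inside 5.8S they differed, since the first 5.8S nucleotide had 75.2% of the coverage of the nucleotide at 5.8S position 25 with the tag alone (70.3 to 79.8) and 91.5% with NKRF (90.1 to 92.8). The rise was made of a few steps. With NKRF and UV, coverage was 51 normalised hits at position 1089, 170 at 1090, 445 at 1091, 781 at the last position, 1095, and 1408 on the first nucleotide of 5.8S. The 2 largest steps were 682 reads at the start of 5.8S and 299 reads between positions 1090 and 1091, which is 5 nt upstream of 5.8S.

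The NKRF PAR library differed in shape there. Its coverage rose from 71 to 204 normalised hits between positions 1090 and 1091. Relative to the first 5.8S nucleotide it was 86.8% at position 1091 (74.7 to 94.5, of 53 reads) and 80.9% at position 1095 (68.0 to 90.6). At position 1090 it had 30.2% (18.3 to 44.3). Only 2 tag-only PAR reads covered this border, which allows no comparison.

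**Figure D2:**
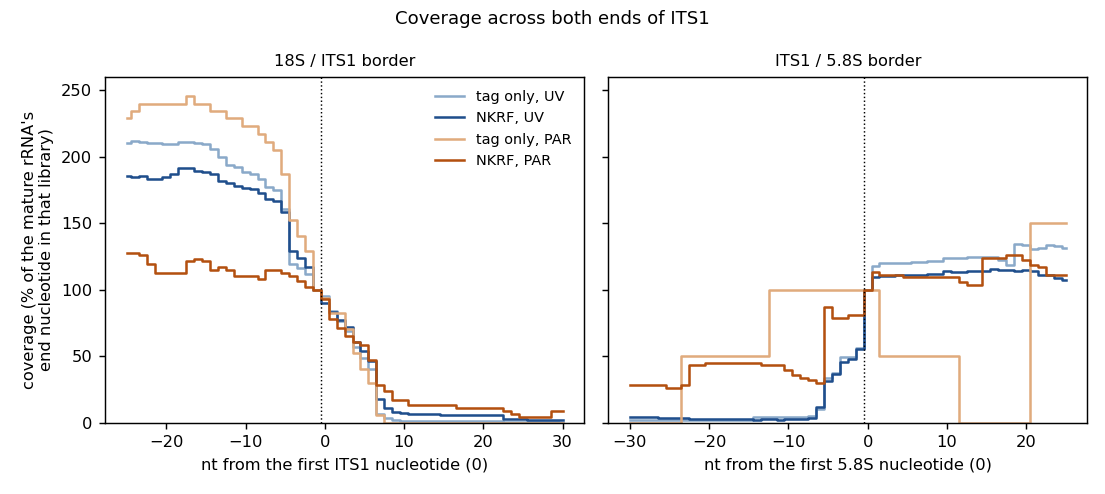
Coverage across the ends of ITS1 as a percentage of that library's coverage of the last 18S nucleotide (left) or of the first 5.8S nucleotide (right), against the distance in nucleotides from the first ITS1 or first 5.8S nucleotide; the dotted line is the border and each line is 1 library. At the 18S border the lines already fall inside 18S and drop again after ITS1 position 7. At the 5.8S border the UV lines rise together, to 56.3% and 55.5% on the last ITS1 nucleotide.

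Inside the spacer the NKRF profile was a series of separate peaks. A peak was the highest position at least 50 nt from any higher one, up to 6 in a library, and less than 50% of its coverage could come from crossing reads. With NKRF and UV the peaks lay at positions 351, 263, 827, 115, 456 and 526, with heights of 904, 559, 380, 189, 177 and 176 normalised hits. With NKRF and PAR they lay at positions 347, 264, 794, 450, 739 and 514, with heights of 1891, 894, 801, 584, 567 and 332. The main peak and the second peak were thus placed 4 nt and 1 nt apart in the 2 libraries. The peaks at 456 and 526 were 6 nt and 12 nt from a PAR peak. Those at 827 and 794 lay 33 nt apart. The UV peak at 115 and the PAR peak at 739 had no counterpart within 50 nt among the 6 of the other library. NKRF PAR coverage did have a lower maximum near 115. It was 27 normalised hits at position 98, 151 at position 119 and 0 at position 152.

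The main peak was the same broad feature in both modes. At position 351 the tag-only UV library had 11 normalised hits and the tag-only PAR library 36, against 904 with NKRF and UV. Position 347 had 10 and 36 with the tag alone, 870 with NKRF and UV and 1891 with NKRF and PAR. Coverage of at least 50% of its height spanned positions 312 to 370 with UV and 331 to 364 with PAR. The tag-only PAR library also had its highest inner point here, 4 reads at position 341.

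The second peak had 10 normalised hits in tag-only UV and 0 in tag-only PAR at position 263, against 559 with NKRF and UV. At the UV peak at 827 tag-only UV had 7 normalised hits and tag-only PAR 9, with 380 for NKRF. At the top of the PAR peak, position 739, neither tag-only library had a read, and the NKRF UV library had 40 normalised hits against 567 in NKRF PAR. Over the whole of that peak, positions 708 to 747, tag-only UV had a mean of 11 normalised hits and NKRF UV one of 42.05, and tag-only UV had a peak of 20 normalised hits inside it, at position 713. The heights of the 2 NKRF libraries are scaled to different totals, so their ratio along the spacer is of more use than either height.

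Positions 251 to 400, which hold the main peak and the second peak, carried 43.1% of the ITS1 coverage of NKRF UV and 44.1% of that of NKRF PAR on 13.7% of the length. These 3 windows of 50 nt were the only ones with at least 10% of the ITS1 coverage in both libraries. Mean coverage there was 474 normalised hits with NKRF and UV against 4.99 for tag-only UV, a 39.5-fold higher share of 47S coverage (27.0 to 60.1). With PAR it was 726 against 5.10, 11.9-fold higher (4.64 to 44.0), and at least 4 reads lay behind that tag-only value. The stretch was 50.7% G and 2.0% A. It was singled out after its values were seen.

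Along ITS1, 22 consecutive windows of 50 nt were compared (the final one had 45 nt), provided that either library of a pair reached a mean of 20 normalised hits. The call was higher or lower where the NKRF and tag-only shares of 47S coverage differed at least 2-fold, with 1 normalised hit added to each mean. In the UV pair 19 of 22 windows were called higher and 0 lower. Of all 256 windows of the 47S examined in that pair, 61.3% were called higher and 6.64% lower. For PAR the calls were 10 higher and 2 lower among 19 windows, against 42.4% and 33.5% of all 245. Both calls were higher in 9 of 19, against 39.2% of all 240. The minimum was reached in the tag-only library in 2 of the 22 UV windows and in none of the 19 PAR windows, where its highest mean was 18 normalised hits. The other windows were examined through their NKRF level, so these counts lean toward higher calls. Of the 3 PAR windows left out, positions 51 to 100 had means of 12.4 with the tag alone and 17.4 with NKRF, a ratio of shares of 0.117 (0.0343 to 0.622), and 1.398 when scaled to library reads. The median log2 ratio was 2.74 in ITS1 and 1.67 over the 47S with UV, and 1.79 and 0.31 with PAR.

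The 9 windows called higher in both modes formed an unbroken run from 201 to 550 and a pair of windows from 751 to 850. The run held 56.5% of the ITS1 coverage of NKRF UV and 61.3% of that of NKRF PAR on 32.0% of the length. The run and the pair were put together from these calls, so their folds describe them and test nothing. The share of 47S coverage of the run with NKRF exceeded that with the tag alone by 28.1-fold in the UV pair (19.9 to 40.9) and by 12.6-fold in the PAR pair (5.37 to 38.9), and tag-only PAR coverage was 0 at 300 of its 350 positions. The pair of windows was 16.05-fold higher with UV (10.7 to 25.03). With PAR it was 7.86-fold higher (1.397 to 312), on a tag-only value of at least 1 read.

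With the added normalised hit, the highest UV log2 ratio was at positions 301 to 350, with a mean of 608 normalised hits against 4.74 with the tag alone, 53.3-fold (31.1 to 100.5). Positions 251 to 300 followed, with 377 against 3.76, 41.7-fold (24.2 to 78.8). Positions 351 to 400 had 437 against 6.48, 28.1-fold (15.2 to 58.7). These neighbours overlapped in their intervals, so their order is not settled by the depth. Positions 451 to 500 and 501 to 550 had 70.6-fold (19.3 to 586) and 41.1-fold (13.9 to 201), on at least 2 and 3 tag-only reads. The folds in this paragraph leave out the added hit, and without it positions 451 to 500 come first.

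In the PAR pair the tag-only library was at 0 in 5 of the 10 windows called higher, and with a floor of 3 reads spanning the window none of these 5 reached a lower bound of 2-fold. Positions 251 to 300, at 544 normalised hits on average with NKRF, were at least 1.71-fold higher. Positions 201 to 250, 401 to 450, 501 to 550 and 751 to 800 had means of 53.6, 211, 249.5 and 289.9 with NKRF. The tag-only library was at 0 there, and the floor gives no lower bound above 1. The bound was lowest, 0.168, at positions 201 to 250, where the run called higher in both modes starts. Positions 701 to 750 had 372 against 1.08, 28.9-fold (7.87 to 241), on at least 2 tag-only reads. Of the 5 called windows with a tag-only value, the interval lay above 1 in 4.

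The 2 windows called lower in the PAR pair were the first and one toward the 3′ end. Positions 1 to 50 had means of 13.9 with the tag alone and 38.4 normalised hits with NKRF, a ratio of shares of 0.232 (0.129 to 0.437), but when scaled to library reads the direction turned, to 2.76-fold higher. Positions 851 to 900 had 6.48 and 35.9, a ratio of shares of 0.465 (0.163 to 1.82) whose interval included 1, and they too turned on that scale, to 5.54-fold higher. In the UV pair positions 851 to 900 were called higher, 3.13-fold (1.99 to 5.21).

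**Figure D3:**
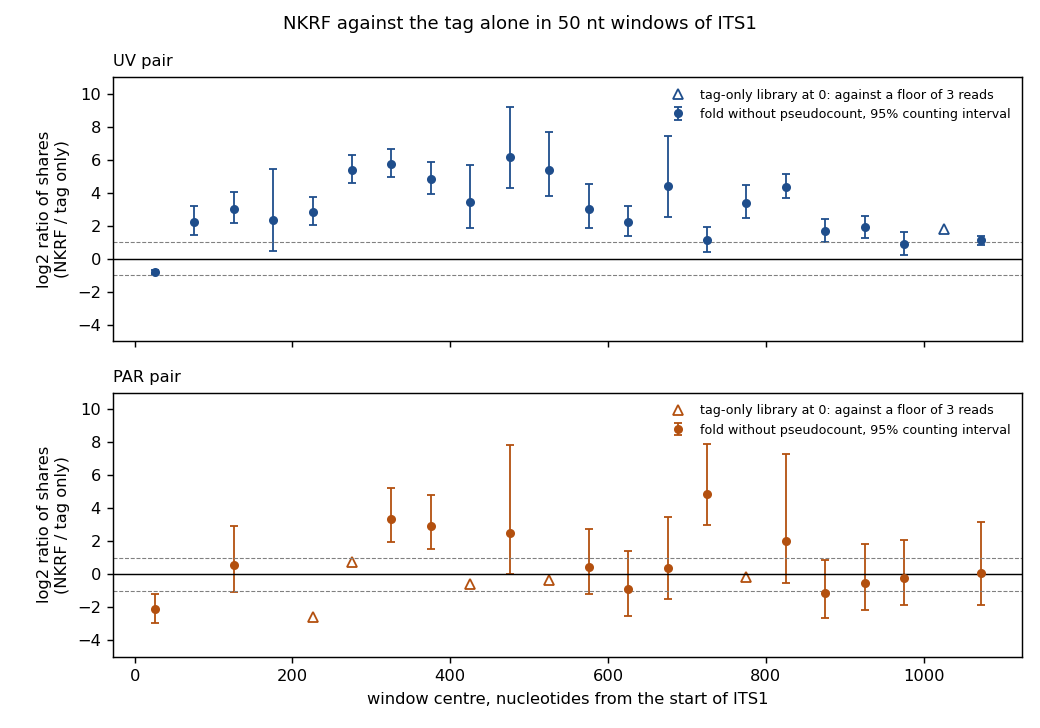
Log2 ratio of the share of 47S coverage, NKRF over the tag alone, in 50 nt windows along ITS1, for the UV pair (top) and the PAR pair (bottom); bars are 95% counting intervals, triangles are windows where the tag-only library was at 0 and stand against a floor of 3 reads, and dashed lines are 2-fold. In the UV pair the 5 highest values lie between positions 251 and 550, and the first window is the only one below 0, which turns to 0.45 when scaled to library reads.

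The NKRF PAR and NKRF UV profiles were not proportional along the spacer. Mean coverage with NKRF PAR over that with NKRF UV ranged from 0.00394 at positions 151 to 200 to 8.17 at positions 701 to 750. Positions 151 to 200 hold 1 T, and they had a mean of 20.3 normalised hits with UV and 0.080 with PAR. In the 70 nt without T, at positions 173 to 242, NKRF UV coverage was above 0 throughout, with a mean of 79.5, while NKRF PAR coverage was 0 at 42 positions and had a mean of 12.1. Positions 1 to 50 and 51 to 100, with 1 and 3 T, had ratios of 0.221 and 0.177. Positions 701 to 750, where the ratio was highest, also had few T, 4 in all. Whether the ratio depends on the share of T was not tested. Across the 22 windows the Spearman correlation of NKRF PAR coverage, not of the ratio, was 0.14 with the share of T. It was -0.69 with the share of A and 0.49 with NKRF UV coverage. These are descriptions over neighbouring windows that share libraries and reads.

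The sharpest step inside the spacer was common to both NKRF libraries. Between positions 370 and 371, coverage fell from 594 to 394 normalised hits with UV, 218 reads, and from 527 to 177 with PAR, 79 reads. It was the largest fall of NKRF PAR in ITS1 and the largest of NKRF UV apart from the one at position 7. Both positions lie in a run of 7 G, at positions 365 to 371. The tag-only UV library went from 12 to 8 normalised hits at the same place, and the tag-only PAR library had no coverage there. In NKRF PAR the 5 largest falls all lay between positions 360 and 371.

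In NKRF PAR the rises were smaller than the largest fall and more spread. The 5 largest were 46 reads at position 260, 36 at 794, 34 at 249 and 331 and 33 at 334. At position 260 coverage rose from 646 to 850 normalised hits, against 523 to 553 with NKRF UV. All 5 of the largest NKRF UV rises lay in the last 6 nt of ITS1 or at the start of 5.8S.

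PAR substitutions mark the base that carried the 4-thiouridine. ITS1 has 139 T, of which 124 had at least 10 NKRF PAR reads, and substitutions made up 21.6% of its coverage at T (20.7 to 22.5). No A, C or G position carried one, and this held for the whole 47S. The deposited values may therefore hold changes at T only, so this absence says nothing about how specific the changes were. There were at most 1.22 substitutions per read, since the number of reads is a lower limit, and a share at a T is not a crosslinking efficiency. At 26 of the 124 T no substitution was found. In ITS2 the share was 22.6% and in the 5′ external spacer 20.7%. Substitutions of the tag-only PAR library were not analysed here.

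T was substituted in at least 50% of the reads at 8 of 124 positions, 6.45%, near the 8.29% of all 1507 such T of the 47S. Position 739 was the highest, at 93.7% of 128 reads (88.1 to 97.3), and it was also the top of its peak. It was followed by position 559 at 72.1% of 43 reads, position 291 at 65.0% of 71, position 1085 at 64.7% of 23 and position 315 at 62.7% of 150. Positions 362, 449 and 405 had 56.7% of 263 reads, 53.1% of 130 and 53.0% of 34. The intervals of positions 1085 (42.7 to 83.6), 449 (44.1 to 61.9) and 405 (35.1 to 70.2) included 50%, so their place among the 8 is not settled. The 8 positions held 29.8% of all T substitutions of ITS1. The median number of other T up to 15 nt away was 3 for them and 5 for the other 116.

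The surroundings of the 8 T differed from one another. T lay between G and C at positions 291, 362 and 405 and between C and C at 559 and 739. The remaining 3 had other neighbours, G and G at 315, A and T at 449 and A and C at 1085. Position 291 had no other T within 15 nt on either side. In the main peak the substitutions were spread over several T, with 29.3% at position 340, 22.8% at 341 and 24.7% at 343. At the PAR peak at 794 they were 41.4% at position 793 and 42.6% at 794.

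In the UV libraries 0.357% of the NKRF coverage of ITS1 was deleted (0.330 to 0.386), against 0.171% with the tag alone (0.105 to 0.273). Without the 3 positions with the most NKRF deletions, which held 55.3% of them, the values were 0.161% and 0.125%. The 2 with the most stood at the 3′ edge of the main peak. The G at position 365 was deleted in 29.8% of NKRF reads (26.5 to 33.3, of 708 reads), and the T at 372 in 27.1% (22.6 to 31.7, of 389). The tag-only library had 36.4% (7.49 to 70.1, of 9 reads) and 25% (3.67 to 71.0, of 7 reads) there, so its few reads showed the deletions too. Position 365 is the first of the 7 G, and a missing G in such a run cannot be assigned to a single base.

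The next deletion shares were lower and had almost no tag-only reads beside them. Position 739, the T with the highest PAR substitution, was deleted in 12.5% of NKRF UV reads (3.79 to 24.6, of 44). Position 1047 was deleted in 10.8% (2.79 to 23.7, of 40) and position 793 in 8.72% (4.81 to 14.1, of 162). Neither tag-only library had a read over position 739, so it has no background value.

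UV substitutions were less frequent with NKRF than with the tag alone, at 1.58% (1.52 to 1.64) and 2.60% (2.30 to 2.90) of ITS1 coverage. Much of the tag-only value came from the first 10 nt, where 3.30% of its coverage was substituted and 3.19% of that of NKRF. Without 10 nt at each end the values were 1.498% with NKRF and 1.87% with the tag alone. The direction there differed by base. NKRF was lower at A (5.30% against 8.30%) and T (2.79% against 3.88%). It was higher at C (1.52% against 0.930%) and G (0.715% against 0.546%). The highest NKRF UV shares were 44.4% at A 208 (23.1 to 68.5, of 20 reads), in the repeat of G and A, 37.2% at C 1011 (22.7 to 51.5, of 47), 36.7% at C 766 (27.0 to 48.3, of 86), 31.5% at A 312 (27.6 to 35.5, of 556) and 28.5% at T 362 (25.3 to 31.9, of 744). T 362 was substituted in 36.4% of tag-only UV coverage (7.49 to 70.1, of 9 reads), and A 312 in the 1 tag-only read over it. T 362 is also one of the 8 T of the PAR library, and the kinds of base change in the 2 modes were not compared.

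**Figure D4:**
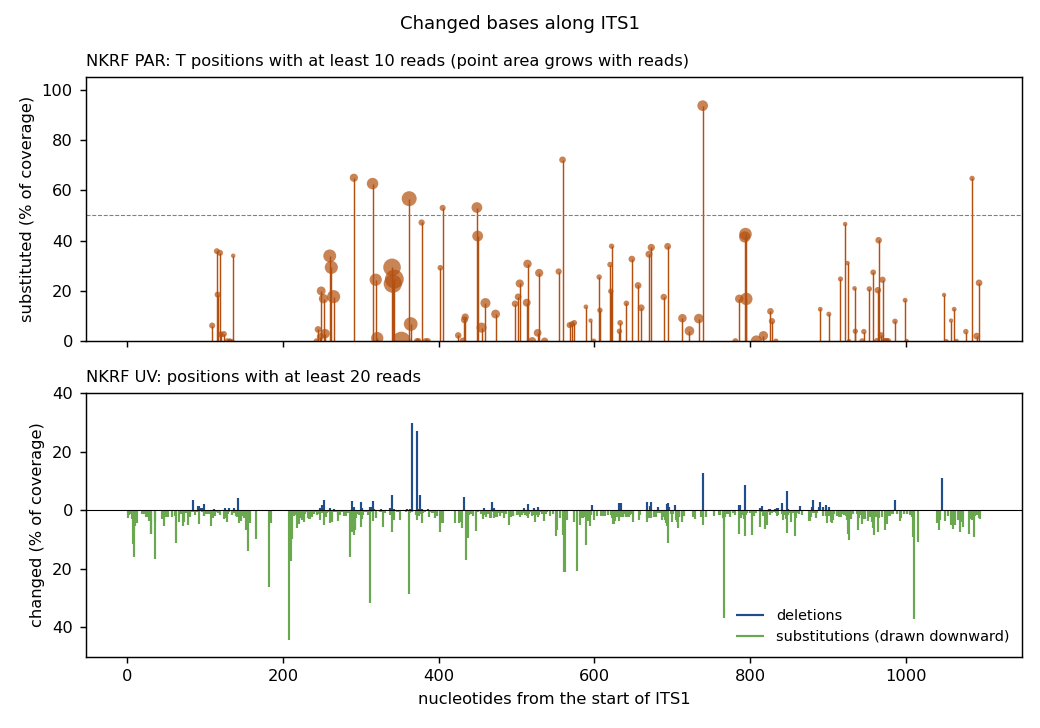
Changed bases along ITS1 with NKRF: substituted share of PAR coverage at each T with at least 10 reads (top, the dashed line is 50%) and shares of UV coverage deleted (bottom, upward) or substituted (bottom, downward) at positions with at least 20 reads, against the distance in nucleotides from the start of ITS1. The T at position 739 reaches 93.7%, and the 2 highest deletion shares, 29.8% and 27.1%, stand at positions 365 and 372.

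In the tag-only UV library, crossing reads could make up more of ITS1 than of ITS2, the other internal spacer. The limit for crossing reads was 57.4% of tag-only UV coverage in ITS1 and 9.30% in ITS2. Without 10 nt at each end, the UV share was 10.7-fold higher with NKRF in ITS1 (9.18 to 12.6), 16.95-fold in ITS2 (15.3 to 18.8) and 2.21-fold in the 5′ external spacer (2.13 to 2.30). The 3 intervals did not overlap. With PAR the same folds were 3.51 (2.33 to 5.55), 5.89 (3.50 to 10.8) and 4.61 (3.801 to 5.65), and these intervals overlapped.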

How the data were processed

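CRAC libraries of 4 groups, 1 each, were analysed. Reads were mapped with Bowtie2 2.2.4, per the submitters' processing notes; for the build, filters, duplicates and multiple hits, the treatment is not given in the sources used here. Per the file headers, the deposited signal is coverage of each 47S nucleotide, with substitutions and, for UV, deletions. In the tag-only PAR file the header is shifted, and coverage was read from the column headed as substitutions. A deposited score per RNA class summed to about 1000000 in each library (1000214 to 1000504).

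The value of 1 read, from the spacing of the rounded values, was 1.19, 0.919, 8.91 and 4.43 normalised hits (UV tag, UV NKRF, PAR tag, PAR NKRF). Of low values, 99.5%, 100%, 100% and 100% were no more than 0.5 normalised hits from a whole read count, which could not fail for NKRF UV. The least number of reads behind a stretch is the first value plus all rises. The code was tested on simulated data. Python 3.11.15, NumPy 2.4.6, pandas 2.3.3 and SciPy 1.17.1 were used. Named peaks (at least 10 reads, or 3 in tag-only PAR), windows (5 highest log2 ratios with the added hit, and all lower), steps (5 largest), T (at least 50% of 10 reads) and UV positions (5 highest of those with 20 reads) followed rules set with earlier results of these data known, as were the members.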

Additional observations from a re-analysis of the deposited data

Results flagged for a closer look

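Positions 851 to 900 of ITS1 (47S 6376 to 6425) had ratios that pointed in opposite directions in the 2 crosslinking modes. The log2 ratio of their share of 47S coverage, NKRF over the tag alone with 1 normalised hit added, was 1.56 with UV and -1.27 with PAR. Without the added hit the PAR ratio of shares was 0.465 (0.163 to 1.82), an interval that includes 1, so a lower PAR share is not settled. The difference between the modes was not tested, and each mode has 1 library per group. At least 4 tag-only PAR reads lay behind the PAR value, and when scaled to library reads the window was 5.54-fold higher with NKRF.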

How the results depend on the processing

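The UV log2 ratio of the ITS1 share of 47S coverage was 2.42. It was 3.68 when scaled to all reads of the library, 3.52 without the first and last 50 nt, 3.42 with the running minimum from both borders subtracted, 2.15 without the highest NKRF window, and 3.42 without the first and last 10 nt, a setting chosen after seeing the data. The PAR log2 ratio of 1.62 was 5.20 when scaled to all reads and otherwise ranged from 1.39 to 1.82, within its counting interval. With a pseudocount of 10 normalised hits the windows called higher numbered 12 with UV, 6 with PAR and 5 in both. Scaled to all reads they numbered 19 with PAR and 18 in both, of 19. On that scale other segments were also higher with NKRF in the PAR pair. The ratios were 53.5 for the 5′ external spacer, 68.4 for ITS2, 27.6 for 28S rRNA and 8.20 for 5.8S, with 18S at 0.732. With a running minimum stopped 75 nt from each border, the limit for crossing reads in NKRF UV was 8.42% in place of 14.5%. With a minimum of 50 reads, 5 of 41 T were substituted in at least 50%. The shares of all 47S windows and of all 47S T that pass under these other settings are not given here, so these counts have no background beside them. Without the position with the most substituted reads, 20.4% of NKRF PAR coverage at T was substituted. Without the 3 positions with the most NKRF UV changes, the deleted share of NKRF UV was 0.161%, and the substituted shares were 1.33% with NKRF and 2.16% with the tag alone. None of these results reversed, 17 moved past the counting interval or the 1.5-fold limit and 12 did not. Of 39 ratios of single windows and of the first and last 10 nt, a setting added after seeing the data, 9 reversed when scaled to all reads. They were lower as a share and became log2 0.18 for the first 10 nt and 0.45 for positions 1 to 50 with UV. With PAR they became 0.67 for the first 10 nt, 2.92 for the last 10 nt, 1.47 for positions 1 to 50, 2.68 for 601 to 650, 2.47 for 851 to 900, 3.07 for 901 to 950 and 3.35 for 951 to 1000. No paired analysis was possible because each group has 1 library. Depth limits the tag-only PAR values most, with at least 39 reads in ITS1.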

Other observations

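The net falls and rises of coverage inside ITS1, without 15 nt at each border, are given here by base. Beside them stands the base composition of the stretch, plain and weighted by coverage. Reads that start where others end cancel, so the read numbers are sums of net changes and not counts of read ends. The falls at G include the step between positions 370 and 371, 218 reads in NKRF UV and 79 in NKRF PAR. The last base before a fall in coverage was G for 54.2% of 3252 NKRF UV reads and 50.2% of 1400 NKRF PAR reads, where G makes up 40.5% of the stretch and 46.6% and 44.4% of the coverage. It was A for 2.21% and 1.57%, where A makes up 7.14% of the stretch and 4.37% and 2.72% of the coverage. With the tag alone and UV it was G for 35.3% and T for 25.6% of 156 reads, where G makes up 39.5% and T 16.5% of the coverage. The first base after a rise was T for 20.3% of NKRF UV and 29.8% of NKRF PAR reads, and for 31.8% of 148 tag-only UV reads, against 12.8% T in the stretch and 14.6%, 15.1% and 16.5% of the coverage.

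The inner peaks of the tag-only libraries were low but partly in the same places in both modes. In tag-only UV they lay at positions 958, 713, 873, 224, 74 and 348, between 24 and 13 normalised hits. In tag-only PAR they lay at 341, 79, 596, 890 and 967, at 3 or 4 reads each. The UV peaks at 958, 873, 74 and 348 were 9, 17, 5 and 7 nt from a PAR peak.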
